A study of Gallus gallus with 2 samples.

Results

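The genes described here encode parts of the muscle contractile machinery: the calcium sensors TNNC1 and TNNC2, the troponin T gene TNNT2, the tropomyosins TPM1 and TPM3, the Z-disc proteins ACTN2 and CSRP3, the intermediate filament gene DES and the calcium store gene CASQ2. They were found as every chicken probe set whose platform gene symbol was one of these 9 names, which gave 23 of 27166 probe sets with 1 symbol, and 9 of 13008 genes. All 9 genes passed the filter on low signal (9303 genes did), and so did 19 of the 23 probe sets. The filter asked for a geometric mean signal over both arrays of at least 118. CASQ2, with 107 on the control array, passed only through its signal on the knockdown array (280). The genes were chosen by their log2 signal ratios between these same arrays, so those ratios are a description and no test was made on them. In the account below, 7 genes are called muscle-restricted, and TPM1 and TPM3, which are made in most cell types, are set beside them.

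The knockdown sample was RNA from GFP-positive neural tube cells of chicken embryos electroporated with pSuper-neo-GFP-Sox4-shRNA and pSuper-neo-GFP-Sox11-shRNA, 2 plasmids that express short hairpin RNAs, one against each of these genes. The control sample was RNA from such cells of embryos that received pSuper-neo-GFP alone. Both sets of embryos were electroporated on both sides at Hamburger-Hamilton stage 9 and harvested at stage 11, although the labels also state 2 days of incubation, so the stage is not certain. Cells were sorted for GFP, and each group was 1 Affymetrix array; the number of embryos per sample was not stated in the labels. The title of the series asks which genes SoxC factors (Sox4, Sox11 and Sox12) regulate while neurons form in the spinal cord.

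Striated muscle contracts when calcium leaves its store, binds troponin C and lets the troponin complex shift tropomyosin along the actin filament, which opens the sites where myosin attaches. Z-discs anchor the ends of the actin filaments, and desmin filaments tie neighbouring Z-discs together. In the embryo the heart tube and the somites next to the neural tube make this machinery, whereas neural tube cells are not known for it. Tropomyosin genes are the exception, because through several promoters and alternative splicing each makes muscle forms and forms for the cytoskeleton of other cells.

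All 7 muscle-restricted genes had higher signal on the knockdown array, by 2.35-fold to 4.35-fold, while TPM1 and TPM3 lay within 1.5-fold by their brightest probe sets. The median log2 signal ratio, knockdown over control, was 1.45 for the 7 genes and 0.25 for TPM1 and TPM3, against 0.020 over all 9303 measured genes. The SD of log2 ratio over all measured genes was 0.46. At least 2-fold higher signal was seen for 7 of the 9 genes and for 3.64% of all measured genes, and at least 2-fold lower signal for 0 of the 9 and for 1.06%. At least 1.5-fold higher signal was seen for 7 of the 9 genes and for 11.4% of all measured genes, and at least 1.5-fold lower signal for 0 of the 9 and for 5.71%. Since these ratios chose the genes, nothing is read from those counts. Among the 3554 measured genes as bright as the muscle-restricted genes, 6.13% had at least 2-fold higher signal, and 1.46% had at least 2-fold lower signal. Without replicates there is no replicate error, and 1 array per group sets the precision of all values below.

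**Figure D1:**
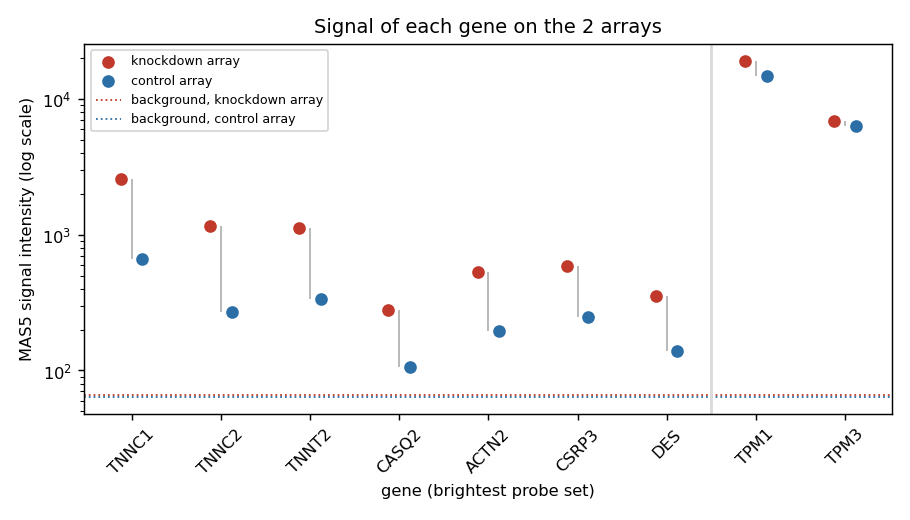
MAS5 signal intensity (log axis) of the brightest probe set of each gene on the knockdown array (red, left) and the control array (blue, right), with each array's background as a dotted line. The 7 muscle-restricted genes lie higher on the knockdown array and TPM1 and TPM3 lie nearly level.

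The troponin genes had the highest ratios of the 9. TNNC2, troponin C of fast skeletal muscle, had a signal of 1170.2 on the knockdown array and 269 on the control array (log2 ratio 2.12, 4.35-fold), which ranked it at place 13 of 9303 measured genes from the highest ratio. TNNC1, troponin C of slow skeletal and heart muscle, had 2599.8 on the knockdown array and 666 on the control array (log2 ratio 1.96, 3.90-fold, place 20). The troponin C of both muscle types thus lay higher on the same array. TNNT2, which encodes cardiac troponin T and ties the complex to tropomyosin, had 1121 on the knockdown array and 334 on the control array (log2 ratio 1.75, 3.36-fold, place 39). Each of these 3 genes has 1 probe set, so no other probe set stands beside these values.

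The Z-disc and filament genes were higher by less. ACTN2, the alpha-actinin that crosslinks actin at the Z-disc of muscle, had 534 on the knockdown array and 196 on the control array by its brighter probe set (log2 ratio 1.45). Its other probe set had 500.0 on the knockdown array and 174.5 on the control array (log2 ratio 1.52). ACTN2 was the only muscle-restricted gene with more than 1 measured probe set. CSRP3, the muscle LIM protein at the Z-disc, had 587 on the knockdown array and 250 on the control array (log2 ratio 1.23), the lowest ratio of the 7. With each array centred on its median, CSRP3 came to 0.99 and lay short of 2-fold.

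DES, which encodes desmin, had 351 on the knockdown array and 138 on the control array (log2 ratio 1.34). Its second probe set lay below background on both arrays, at 43.2 on the knockdown array and 27.4 on the control array, which gives no fold. CASQ2, a calsequestrin that holds calcium in the store, had 280 on the knockdown array and 107 on the control array (log2 ratio 1.40). CASQ2 was the dimmest of the 7, with a control signal 1.68 times background, and CASQ1 is listed among its older names, so the signal is not assigned here to the heart or the skeletal form. Of its other probe sets, 1 had 69.5 on the knockdown array and 75.6 on the control array (log2 ratio -0.12) and failed the filter, and 1 lay below background at 4.6 on the knockdown array and 1.6 on the control array. With the mean over all probe sets of a gene, CASQ2 had a log2 ratio of 0.93 and DES 0.9999, both short of 2-fold.

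The 7 muscle-restricted genes lay above background on both arrays, some by little. Their signals were 4.26 times (CASQ2) to 39.5 times (TNNC1) background on the knockdown array, and 1.68 times (CASQ2) to 10.5 times (TNNC1) background on the control array. Signal summed over the 7 was 6643 on the knockdown array and 1959 on the control array, a ratio of 3.39. The one measure of spread within these arrays, the SD of log2 ratio among probe sets that share a gene, was 0.46 at the brightness of TNNC1 and 0.54 at that of DES and CASQ2. All 7 log2 ratios were larger than this SD at their own brightness, but these ratios chose the genes, so nothing is read from that. The SD covers neither biological nor array-to-array error. The RNA is of a bulk sorted sample, in which more cells of a type and more RNA per cell cannot be told apart.

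**Figure D2:**
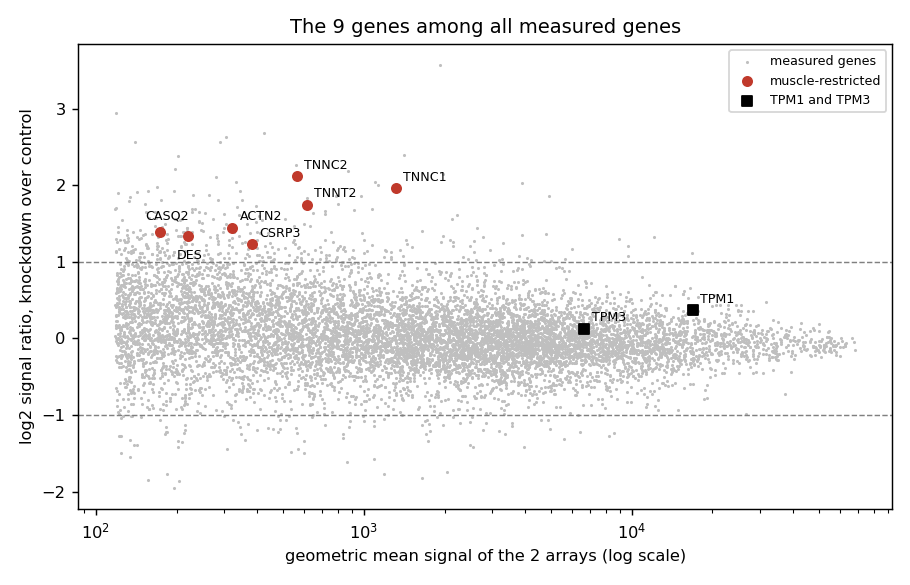
Log2 signal ratio, knockdown over control, against the geometric mean signal of both arrays (log axis) for 9303 measured genes (grey), the 7 muscle-restricted genes (red) and TPM1 and TPM3 (black squares), with dashed lines at 2-fold. The 3 troponin genes lie between 1.75 and 2.12. The other 4 muscle-restricted genes are dimmer, among genes whose ratios spread widely, and lie between 1.23 and 1.45.

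TPM1 did not give 1 answer, because its 8 probe sets fell into separate ranges. By the brightest it had 19185 on the knockdown array and 14814 on the control array (log2 ratio 0.37). The next brightest had 9473 on the knockdown array and 6807 on the control array (log2 ratio 0.48). A dimmer one had 1341 on the knockdown array and 1165 on the control array (log2 ratio 0.20). These 3 probe sets, all under 1.5-fold, come from 3 source sequences in the platform annotation.

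The other 5 probe sets of TPM1 were 2.92-fold to 4.53-fold higher on the knockdown array. This range reaches below and above that of TNNT2, TNNC1 and TNNC2 (3.36-fold to 4.35-fold). At least 2-fold higher signal was read by 5 of 8 TPM1 probe sets, beside 5.79% of all measured probe sets with 1 symbol. Of the 5, 3 were designed from the same source sequence and are not independent of each other. The dimmest of the 3, an _s probe set, had 1951 on the knockdown array and 431 on the control array (log2 ratio 2.18), above the ratio of every muscle-restricted gene. The _x probe set of this source had 5822 on the knockdown array and 1627 on the control array (log2 ratio 1.84). Its _a probe set had 7649 on the knockdown array and 2253 on the control array (log2 ratio 1.76). In Affymetrix names, _a marks probes shared by transcript forms of a gene, _s probes shared with other genes, and _x probes of which some also match other sequences.

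The last 2 of the 5 each had a source sequence of their own. An _x probe set had 3912 on the knockdown array and 1295 on the control array (log2 ratio 1.60). An _a probe set had 2899 on the knockdown array and 994 on the control array (log2 ratio 1.54). No TPM1 probe set lay between 0.48 and 1.54, a gap of 1.07 on the log2 scale. Which transcript form each probe set reads is not given here. With the mean over its probe sets TPM1 had a log2 ratio of 1.25, past 2-fold, so whether it counts among the higher genes depends on the probe set that stands for it. TPM1 held place 7 of 101 genes with at least 5 measured probe sets for the width of its range (1.98 on the log2 scale, against a median width of 1.12). Of those 101 genes, 28 had a probe set at least 2-fold higher beside one below 1.5-fold higher.

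**Figure D3:**
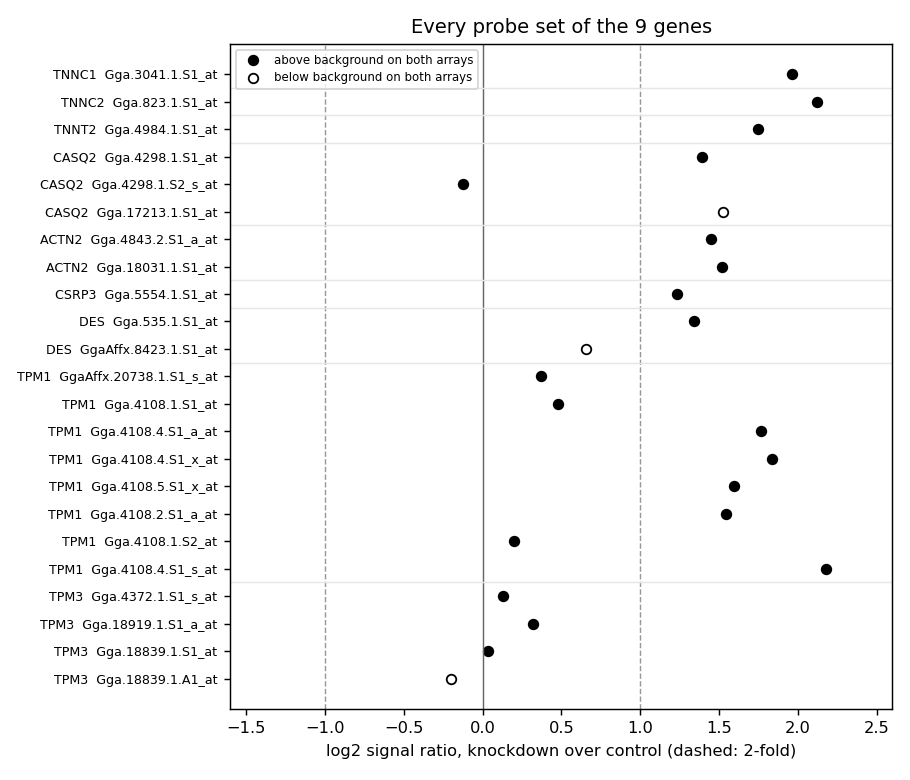
Log2 signal ratio, knockdown over control, of all 23 probe sets, ordered within each gene from brightest to dimmest, with open circles where both signals lay below background and dashed lines at 2-fold. The 8 TPM1 probe sets form a group of 3 between 0.20 and 0.48 and a group of 5 between 1.54 and 2.18.

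The arrays also differed in how evenly they read the 2 ends of a transcript. The probe set for the 5' end of the actin control transcript had 28936 on the knockdown array and 10944 on the control array (log2 ratio 1.40), a gain that its 3' end did not share, with 53426 on the knockdown array and 59662 on the control array (log2 ratio -0.16). Its middle was near even, at a log2 ratio of 0.04. The 3' to 5' signal ratio of this transcript was 1.85 on the knockdown array and 5.45 on the control array, and that of the EF1A transcript 1.505 on the knockdown array and 2.92 on the control array. That of the GAPDH transcript was 1.05 on the knockdown array and 1.25 on the control array, the smallest difference of the 3. Where the TPM1 probe sets lie along the transcript is not given here, and the part of this difference in their ratios was not tested. The same holds for the muscle-restricted genes, of which 4 have a single probe set.

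TPM3, the other broadly made tropomyosin, was close to even. By its brightest probe set it had 6958 on the knockdown array and 6362 on the control array (log2 ratio 0.13, but -0.12 with each array centred on its median). Its second probe set had 805 on the knockdown array and 646 on the control array (log2 ratio 0.32), and the dimmest measured one had 128 on the knockdown array and 125 on the control array (log2 ratio 0.03). The last probe set lay below background on both arrays, at 13.6 on the knockdown array and 15.6 on the control array. No measured probe set of TPM3 reached 1.5-fold. The brightest probe set of each of the 2 tropomyosins ends in _s_at; without such probe sets and those ending in _x_at, TPM1 had a log2 ratio of 0.48 and TPM3 of 0.32.

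By their brightest probe sets, the other measured troponin genes had smaller ratios than TNNC1, TNNC2 and TNNT2. Of 7 further troponin and tropomyosin genes listed, 4 were matched, 3 were measured and 2 were at least 2-fold higher, beside 3.64% of all measured genes. These 2 were TNNI2, troponin I of fast muscle (301 on the knockdown array and 141 on the control array, log2 ratio 1.10), and TNNT3, troponin T of fast muscle (1056 on the knockdown array and 498 on the control array, log2 ratio 1.08). Both fell short of 2-fold under median centring, quantile normalization and loess centring, and TNNI2 also with a constant added to both signals. A second probe set of TNNT3, which failed the filter, had 229 on the knockdown array and lay below background on the control array (19.7), at least 3.60-fold higher. TNNI1, the slow troponin I, had 67.8 on the knockdown array and 49.4 on the control array, at the level of background.

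TPM2, a further tropomyosin gene, also had probe sets on both sides of 2-fold. Its brightest probe set had 5134 on the knockdown array and 4069 on the control array (log2 ratio 0.34), and 2 others gave 0.28 and -0.34. The other 2 of its 5 measured probe sets, named as versions of the same target, had 2671 on the knockdown array and 1112 on the control array (log2 ratio 1.26), and 2390 on the knockdown array and 894 on the control array (log2 ratio 1.42). Sequences of tropomyosin genes are alike, and 1 of these 2 is an _x probe set.

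The Z-disc and thin filament list was mixed. Of 28 genes, 26 were matched, 14 were measured, 5 were at least 2-fold higher and 0 lower, with a median log2 ratio of 0.18. The shares over all measured genes were 3.64% higher and 1.06% lower. MYOZ2, a calcineurin-binding protein of the Z-disc, had 337 on the knockdown array and 85.1 on the control array (log2 ratio 1.98). MYOT, which crosslinks actin at the Z-disc, had 407 on the knockdown array and 129 on the control array (log2 ratio 1.66). NEXN, an actin-binding Z-disc protein, had 1138 on the knockdown array and 366 on the control array (log2 ratio 1.64), and its other 2 probe sets gave 1.69 and 1.52. SYNPO2L was at 1.40 and ANKRD1 at 1.01 on the log2 ratio scale, and ANKRD1 fell short of 2-fold under median centring, quantile normalization, loess centring and an added constant. The genes NEB and NEBL were near even (-0.23 and -0.12), and FLNC, the muscle filamin, was lower at -0.67. FHL1, LMOD2, MYOZ1, PDLIM3, TMOD4 and XIRP2 lay below background on both arrays.

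Few partners of CASQ2 at the calcium store were measured. At least 1.5-fold, 0 of these were higher and 1 was lower, beside 11.4% and 5.71% of all measured genes. Nothing is read from counts over so few genes. Of 17 listed, 11 were matched and 3 measured, with 0 at least 2-fold higher and 0 lower. The 2-fold shares over all measured genes were 3.64% higher and 1.06% lower. ATP2A2, the calcium pump of the store, had 4371 on the knockdown array and 5479 on the control array (log2 ratio -0.33), ASPH, whose locus also encodes junctin, was at -0.62, and JPH1, which couples store and surface membrane, at 0.04. TRDN, which anchors calsequestrin, the release channel gene RYR3 and the pump inhibitor gene PLN lay below background on both arrays. SRL, a calcium-binding protein of the store, failed the filter, with 176 on the knockdown array against a control signal of 61.8 under background, at least 2.77-fold higher. RYR2 failed it too, with 110 on the knockdown array and 84.0 on the control array, as did CACNA1C with 72.2 and 81.9. So did CACNA1S with 76.7 on the knockdown array and 41.6, below background, on the control array. SLN also failed it, with 47.0, below background, on the knockdown array and 81.0 on the control array.

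Actin, myosin and thick filament genes had a higher median ratio than the troponin and Z-disc lists. Of 24 names listed, 18 genes were matched (MYH6 led through a synonym to MYH15), 11 were measured, 8 were at least 2-fold higher and 0 lower, with a median log2 ratio of 2.01. All measured genes stood at 3.64% higher and 1.06% lower by that much. One of the 8 was MYH11, the myosin of smooth muscle (log2 ratio 1.16), which is also among the smooth muscle markers below. Without it 7 of 10 were at least 2-fold higher. MYH11 fell short of 2-fold under the same 4 settings as ANKRD1. The highest ratio of all measured genes was that of ACTC1, cardiac alpha-actin, with 6647 on the knockdown array and 559 on the control array (log2 ratio 3.57). The myosin light chain genes MYL1 and MYL3 had log2 ratios of 2.69 and 2.38, and MYH15 was at 2.26. MYL4, the brightest gene of the list, had 11882 on the knockdown array and 7829 on the control array. Its log2 ratio of 0.60 and that of MYL9 (0.68) were short of 2-fold. MYL2, a light chain of heart and slow muscle, had 329 on the knockdown array and 42.8, below background, on the control array, at least 5.18-fold higher. The myosin-binding protein gene MYBPC1 failed the filter and was at least 4.94-fold higher, with 314 on the knockdown array and 22.4, below background, on the control array. MYOM2 failed it too, with 77.5 on the knockdown array and 36.8, below background, on the control array. The myosin gene MYH7 also failed it and went the other way, with 10.9, below background, on the knockdown array and 71.3 on the control array. Against background this is at least 1.08-fold lower. TTN, the giant spring protein that runs from the Z-disc to the middle of the sarcomere, had 172 on the knockdown array and 87.8 on the control array (log2 ratio 0.97). MYBPC3, MYH7B and MYOM1 lay below background on both arrays.

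Broadly expressed counterparts had a median near even, at a log2 ratio of 0.12 over 17 measured genes. Of the 17, 3 were higher by 1.5-fold or more, 1 of them past 2-fold, and 2 were lower by 1.5-fold or more. Beside these counts, 11.4% of all measured genes were higher by 1.5-fold or more and 5.71% were lower by as much. Past 2-fold, 3.64% of all measured genes were higher. ACTN1, the alpha-actinin of other cells, was at 0.35 against 1.45 for ACTN2, and VIM, the intermediate filament of other cells, at -0.11 against 1.34 for DES. The LIM protein genes went with CSRP3: CSRP1 had 649 on the knockdown array and 309 on the control array (log2 ratio 1.07), and CSRP2 had 1461 on the knockdown array and 742 on the control array (log2 ratio 0.98). CSRP1 fell short of 2-fold under median centring, quantile normalization, loess centring and an added constant. CAPZA1, which caps actin filaments at the Z-disc and elsewhere, was at -0.73, and TAGLN3, a neuronal actin-binding protein, at -0.93.

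**Figure D4:**
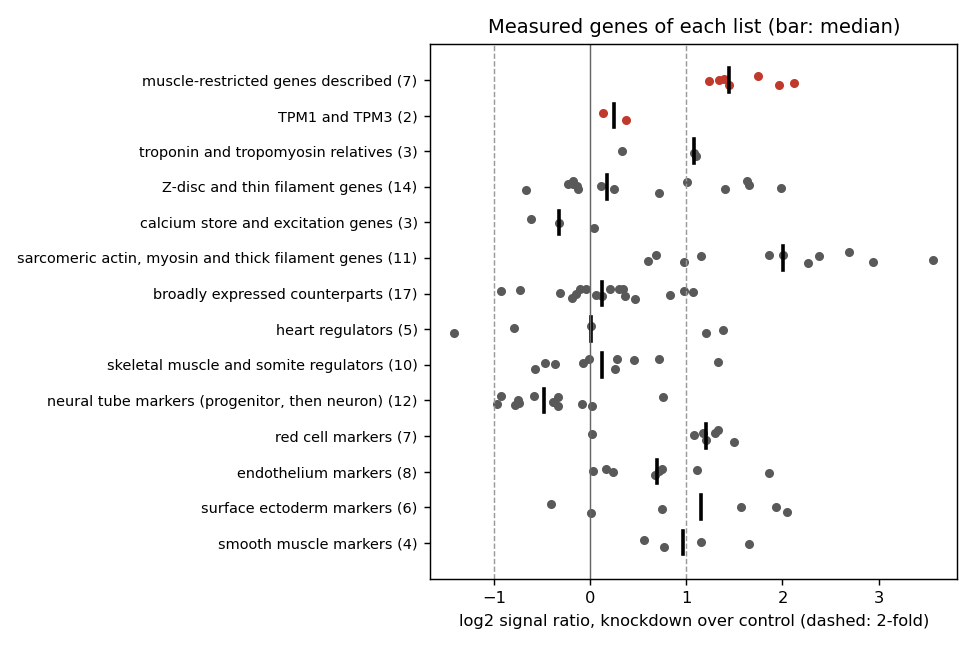
Log2 signal ratio, knockdown over control, of the measured genes of each list, with the number of genes in parentheses, the median as a bar and dashed lines at 2-fold; vertical scatter within a row has no meaning. The actin and myosin list has the highest median (2.01), the Z-disc and thin filament list spreads from -0.67 to 1.98, and the neural tube markers have a median of -0.48.

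Regulators and markers of the cell types that make these proteins were measured beside them. Of all chicken probe sets, 65.5% lay above background on the knockdown array and 62.5% on the control array. These shares stand beside the counts above background here and in the paragraphs that follow, which are of genes by their brightest probe set. The 15 heart regulator names led to 14 genes (NPPB through a synonym to NPPA), of which 9 lay above background on the knockdown array and 5 on the control array. Their summed signal was 3563 on the knockdown array and 5370.5 on the control array, a direction set by ISL1, which neurons make too (1562 on the knockdown array and 4160.2 on the control array). Without ISL1 the sum was 2002 on the knockdown array and 1210.3 on the control array. Of 5 measured heart regulators, 2 were at least 2-fold higher and 1, ISL1, at least 2-fold lower. The shares over all measured genes were 3.64% higher and 1.06% lower, here and for the somite regulators below. GATA5, a factor of heart and endoderm, had 607 on the knockdown array and 234 on the control array (log2 ratio 1.38). SMYD1, a muscle methyltransferase, had 315 on the knockdown array and 136 on the control array (log2 ratio 1.21, short of 2-fold under median centring, quantile normalization and loess centring), and MEF2C was at -0.80. In each of those settings 1 measured heart regulator was at least 2-fold higher and 2 were at least 2-fold lower. Of all measured genes, 162 to 220 were then higher by that much and 162 to 269 lower. GATA6, which failed the filter, had 155 on the knockdown array and 9.7, below background, on the control array, at least 2.43-fold higher. HAND2 had 105 on the knockdown array and 48.3, below background, on the control array, at least 1.66-fold higher. GATA4 and NPPA also lay above background on the knockdown array alone, at least 1.04-fold and 1.32-fold higher. The heart factors NKX2-5, TBX5, TBX20, HAND1 and MYOCD lay below background on both arrays. Of 13 matched skeletal muscle and somite regulators, 13 lay above background on the knockdown array and 10 on the control array. Their summed signal was 15379.9 on the knockdown array and 16545 on the control array. Of these sums MEF2A made up 5470.5 and 5752, and MEF2D 2867 and 2895. PAX3 and PAX7 among them are made in the dorsal neural tube as well. Of 10 measured, 1 was at least 2-fold higher and 0 lower, with a median log2 ratio of 0.12. PAX7 was at -0.58, EYA2 at -0.47, PAX3 at 0.71 and MEOX1 at 0.46. The myogenic factor MYF5 had 272 on the knockdown array and 108 on the control array (log2 ratio 1.33). MYOG failed the filter, with 162 on the knockdown array and 31.9, below background, on the control array, at least 2.55-fold higher. MYF6 failed it too, with 208 on the knockdown array and 18.4, below background, on the control array, at least 3.28-fold higher. MYOD1, another myogenic factor, had 210 on the knockdown array and 270 on the control array. Whether cells of heart or somite in the sort took part in the signals of the 7 genes was not tested.

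Markers of other cell types were counted in the same way, and the lists differed in how many of their genes were higher. Over all measured genes the 2-fold shares were 3.64% higher and 1.06% lower. Of 7 measured red cell markers, 6 were at least 2-fold higher and 0 lower: the anion exchanger gene SLC4A1 (log2 ratio 1.49) and 5 globin genes, of which HBM led through a synonym to HBAD. ALAS2 led to ALAS1, which is not particular to red cells and was even (0.017). The red cell sum was 73911 on the knockdown array (9 of 9 matched genes above background) and 33097 on the control array (8 of 9). Of 8 measured endothelium markers, 2 were at least 2-fold higher and 0 lower: CDH5, the endothelial cadherin (log2 ratio 1.86), and the receptor gene TEK (1.11). KDR, ERG and TIE1 were at 0.75, 0.71 and 0.68, and 5 of the 8 were at least 1.5-fold higher, beside 11.4% of all measured genes. PECAM1, FLI1 and LMO2 were at 0.16, 0.03 and 0.23. EMCN, which failed the filter, had 58.4, below background, on the knockdown array and 98.3 on the control array. The endothelium sum was 4008 on the knockdown array (8 of 9) and 2462 on the control array (9 of 9).

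Of 6 measured surface ectoderm markers, 3 were at least 2-fold higher and 0 lower: the keratin gene KRT7 (log2 ratio 2.04), the splicing regulator gene ESRP2 (1.93) and KRT24 (1.57), to which KRT19 led through a synonym. Here and for the smooth muscle markers, 3.64% of all measured genes were higher by that much and 1.06% lower. CDH1 was at 0.75, TFAP2A at -0.41 and the adhesion gene EPCAM at 0.0093. The ectoderm sum was 10967 on the knockdown array (7 of 8) and 6219.5 on the control array (6 of 8), and without KRT24 it was 7305 on the knockdown array and 4982 on the control array. Of 4 measured smooth muscle markers, 2 were at least 2-fold higher and 0 lower: SYNM, an intermediate filament protein that muscle of other kinds makes too (log2 ratio 1.65), and MYH11. TAGLN and MYLK were at 0.77 and 0.57. The smooth muscle sum was 2588 on the knockdown array (4 of 5) and 1503 on the control array (4 of 5). ACTA2, a defining smooth muscle actin, lay below background on both arrays. Neural tube markers, all 12 above background on both arrays, summed to 128382 on the knockdown array and 166391 on the control array. Of the 12, 0 were at least 2-fold higher and 0 lower, beside 3.64% and 1.06% of all measured genes. At least 1.5-fold, 1 was higher and 5 were lower, beside 11.4% and 5.71% of all measured genes. Among progenitor genes SOX2 was at 0.76, FABP7 at 0.02, HES5 at -0.08, PAX6 at -0.33, SOX3 at -0.34 and NES at -0.39. Among neuron genes TUBB3 was at -0.97, ELAVL4 at -0.93, NEFM at -0.78, DCX at -0.75, STMN2 at -0.74 and MAP2 at -0.58. SOX4 had 3157 on the knockdown array and 6604 on the control array (log2 ratio -1.06), and SOX11 had 2790.1 on the knockdown array and 4552 on the control array (log2 ratio -0.71), by the 1 probe set of each that lay above background. With each array centred on its median, 3 red cell, 1 endothelium, 3 surface ectoderm and 1 smooth muscle markers were at least 2-fold higher. So were 162 of 9303 measured genes. In that setting 3 neural tube markers were at least 2-fold lower, beside 269 of 9303 measured genes. The probe sets that stand for KRT7, ESRP2 and TEK end in _s_at. Without probe sets ending in _s_at and _x_at, 6 red cell, 1 endothelium, 1 surface ectoderm and 2 smooth muscle markers were at least 2-fold higher. So were 300 of 7891 measured genes. The part of these cell types in the ratios of the muscle genes was not tested.

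**Figure D5:**
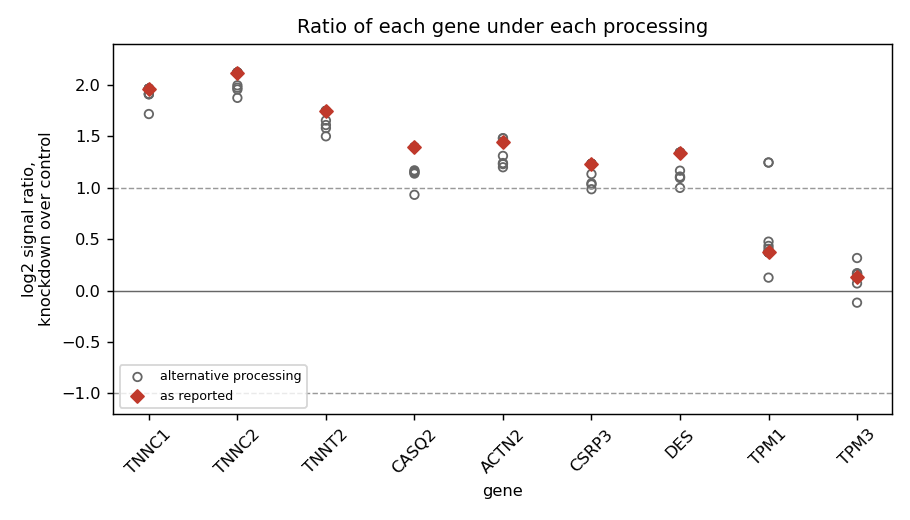
Log2 signal ratio, knockdown over control, of each gene as reported (red diamond) and under each alternative processing (open circles), with dashed lines at 2-fold. The troponin genes and ACTN2 stayed above 2-fold in all settings that kept them, CASQ2, CSRP3 and DES dipped below it in 1 setting each, and TPM1 moved from 0.37 to 1.25 with the mean over probe sets.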

How the data were processed

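The authors deposited 1 linear signal intensity per probe set and array, from MAS5 5.0 according to the submitters' processing notes. No genome build was used, and the scaling target was not stated. Trimmed means (2% off each end) were 1000.3 on both arrays. Probe sets were named from the platform annotation, whose symbols equalled those of RefSeq's gene table of GRCg7b wherever the Entrez number was found (26851 of 27166). A gene was represented by its brightest probe set over both arrays and counted as measured at a geometric mean signal of at least 118, the median of chicken probe sets. A gene under 118 on 1 array can thus pass through the other. CASQ2, MYOZ2, ANKRD1, MYL2, MYL3, MYH11, TTN, MYF5, SLC4A1, KDR, TEK, TIE1 and PECAM1 passed only through the knockdown array. MEF2C passed only through the control array. Counts of measured genes at least 2-fold higher or lower are therefore partly set by the filter. Background was set on each array at percentile 95 of 687 probe sets for viruses, which gave 65.8 on the knockdown array and 63.6 on the control array. Where 1 signal lay at or under background, the fold is a lower bound against it. Of 180 list entries, 150 were matched. Genes were counted by size of fold, and this counting was tested on simulated data. With 1 array a group no test was made. The genes described and the 12 lists were chosen with earlier results of these data known. The rule for named genes took the 9 genes with every probe set, the targets and at most 5 measured genes of each list with the largest ratios; some of these are given only within a count, and other list genes were named after their values were seen. Protein and promoter sequences were not used here. Python 3.11.15, pandas 2.3.3 and statsmodels 0.14.6 were used. Alternatives changed the scaling, the treatment of low signals, the filter or the choice of probe sets.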

Additional observations from a re-analysis of the deposited data

How the results depend on the processing

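The 7 muscle-restricted genes lay above 0 in all settings run that kept them, and leaving out probe sets ending in _s_at and _x_at, or ISL1, KRT24 or MYH11 from its list, was chosen after seeing the data. Median centring shifted the median of all measured genes to -0.23, against 0.020 as deposited; there TPM3 was at -0.12. The counts of all measured genes at least 2-fold higher and lower, 339 and 99 as deposited, were 162 and 269 with median centring, 209 and 168 with quantile normalization and 220 and 162 with loess centring. They were 664 and 191 with the mean of all probe sets, 1300 and 652 with no filter, 815 and 316 with the filter at the 25th percentile, and 71 and 46 at the 75th. The filter at the 75th percentile kept only TNNC1 of the muscle-restricted genes, by construction, so the numbers of genes past 2-fold and past 1.5-fold were 1 and 1, the muscle-restricted median was 1.96 and its distance from that of TPM1 and TPM3 was 1.71, against 1.20 as reported. With the mean of measured probe sets the median of TPM1 and TPM3 was 0.70, since TPM1 came to 1.25, and the distance was 0.78. Averaging every probe set of a gene gave a distance of 0.82, and quantile normalization and loess centring gave 0.94. The number of genes at least 2-fold higher was 6 with median centring (without CSRP3), 6 with the mean of all probe sets (with TPM1, without CASQ2 and DES) and 8 with the mean of measured probe sets. Low signals limit CASQ2 and DES most. No paired analysis was possible because each group is 1 array.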
